A study of Homo sapiens with 6 samples.

Results

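The genes described here are 10 amino acid transporters of the solute carrier (SLC) families, namely SLC1A4, SLC1A5, SLC3A2, SLC7A1, SLC7A5, SLC7A6, SLC7A11, SLC38A1, SLC38A2 and SLC6A6. They were taken by symbol from a table of 27942 genes, and all 10 had a row. HCT116 is a human colorectal cancer cell line with wild-type p53. HCT116 cells were cultured for 24 h, either without treatment (NT) or with oxaliplatin at 0.5 µM (OXA), and polyA RNA was sequenced from 3 NT and 3 OXA libraries. Oxaliplatin is a platinum drug that crosslinks DNA. The groups share the cell line and medium, so the comparison asks how the transporter mRNAs of this line differed after a day of the drug. The labels call the samples replicates and do not say whether they were separate cultures, so the p-values below measure the spread between these samples, which may be technical.

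Amino acid transporters move amino acids across the plasma membrane and supply protein synthesis, glutathione and growth signalling. Some are exchangers, which import an amino acid only against the export of another, and others are loaders, which accumulate amino acids using the sodium gradient. Several light chains of the SLC7 family reach the membrane only when bound to the heavy chain SLC3A2. Transcription of many of these genes is known to be raised by ATF4, the factor translated when amino acids run short, and the imported leucine and arginine are read by the mTORC1 kinase, which drives growth.

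Exposure to oxaliplatin was accompanied by lower mRNA of 2 of the 10 transporters. SLC1A4, which exchanges neutral amino acids such as serine and alanine, fell by 51.4%, and SLC7A1, the main importer of arginine and lysine, fell by 27.0%. None of the 10 was called higher in the group comparison (edgeR quasi-likelihood test, Benjamini-Hochberg adjusted p under 0.05 over 13727 genes). DESeq2 and limma-voom also called 0 higher, and at an unadjusted p under 0.05 by edgeR 1 was higher, SLC7A6. Among all genes tested, 2.29% were lower and 2.78% were higher by the same rule. The median log2 fold change (OXA over NT) was -0.0089 over the 10 transporters and 0.02 over all genes tested. With the replicate number as a block, SLC1A4, SLC7A1, SLC7A11 and SLC38A1 were lower and SLC7A6 was higher, while 10.9% of all genes were lower and 12.1% were higher under that fit.

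Total counts ran from 32979521 to 40967880 per library, and the 10 transporters held 0.200% to 0.240% of them. All 10 passed the filter on low counts, with raw counts from 206 to 32866, so that the standard deviation from counting alone ran from 6.97% down to 0.552%. As a check of the treatment, 9 of 10 listed p53 targets rose, with CDKN1A at a log2 fold change of 2.93 (adjusted p = 0.000445) and MDM2 at 2.22 (adjusted p = 0.000445) by edgeR. Of the 10 listed colon epithelial markers 9 passed the filter, and their list summed to 71584 to 116638 raw counts per library. EPCAM (8451 to 10828), KRT8, KRT18 and CDH1 were high, KRT20 (26 to 61), VIL1 (39 to 95) and CLDN3 (7 to 82) were low, and CDX1 was at 0 in all. The 6 fibroblast markers summed to 118 to 291 counts, nearly all from COL1A1 (107 to 273), the 4 leukocyte markers to 156 to 238, nearly all from CD68 (152 to 237), and the 3 endothelial markers to 16 to 32, mostly from VWF (13 to 29). DCN was at 0 in every library, and PTPRC and PDGFRA had at most 2 counts. NT 1 stood apart from the other NT libraries, with a chi-square per gene of 83.1 and 75.7 against NT 2 and NT 3, which differed from each other by 21.4. Without NT 1 the same 2 transporters were called lower, SLC1A4 at -1.10 on the log2 scale (edgeR adjusted p = 0.00315) and SLC7A1 at -0.52 (adjusted p = 0.0102). In bulk RNA, fewer cells with a transcript and less of it per cell cannot be told apart.

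Promoter sequences of the transporters are shown because ATF4 acts through a short composite site, the C/EBP-ATF response element. Its core was searched as TGATGNAA on both strands of RefSeq promoter windows (GRCh38.p14, from 250 bases before to 50 bases after each listed start). Of the 10 genes, 8 were in the promoter table, with 14 promoters, and SLC6A6 and SLC7A11 were not analysed here. A match was found in 5 of the 14 promoters, belonging to SLC1A4, SLC1A5, SLC3A2, SLC7A1 and SLC38A1, and in 3.62% of 35116 promoters in all. The stretches around 4 of these matches follow, 5′ to 3′ on the strand of the gene, with the match in capitals. The match of SLC1A4 lies on the opposite strand and therefore reads as the reverse complement, and that of SLC1A5 lies before an alternative start. The matches of SLC7A1 and SLC3A2 begin after the listed start, at bases 8 and 38. The windows with the matches of SLC1A4, SLC1A5, SLC3A2 and SLC38A1 lie wholly within the gene coordinates given below.
SLC1A4, chr2:64989366-64989425, plus strand: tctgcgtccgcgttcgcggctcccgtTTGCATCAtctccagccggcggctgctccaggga
SLC7A1, chr13:29595659-29595707, minus strand: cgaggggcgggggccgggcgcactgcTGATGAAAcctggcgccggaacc
SLC38A1, chr12:46266487-46266546, minus strand: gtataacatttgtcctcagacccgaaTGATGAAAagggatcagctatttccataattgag
SLC1A5, chr19:46784878-46784937, minus strand: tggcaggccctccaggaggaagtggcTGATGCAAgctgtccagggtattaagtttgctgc
The windows of SLC7A5, SLC7A6 and SLC38A2 held no TGATGNAA. The antioxidant response element core TGACNNNGC was found in 5 of the 14 promoters and in 13.3% of all promoters, and the E-box CACGTG in 2 of the 14 and in 7.26% of all. SLC3A2, SLC7A1, SLC7A6, SLC7A5 and SLC1A5 held the antioxidant core, and SLC7A5 and SLC1A5 held the E-box. These matches describe letters in a window and were not tested for binding.

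Levels were compared between genes as RPKM, that is reads per kilobase of summed exons, scaled to library size. The summed exons span all annotated transcripts of a gene, from 3332 bases for SLC1A5 to 10015 for SLC38A1, with 6392 for SLC3A2. Which transcripts the cells express was not determined, so the order between genes depends on these lengths. The glutamine and small neutral amino acid loader SLC38A2 stood first in all 6 libraries, at 112 ± 10.7 RPKM in NT (SD, n = 3) and 112 ± 14.02 in OXA. The glutamine exchanger SLC1A5 followed at 78.3 ± 17.9 RPKM in NT and 77.6 ± 7.28 in OXA, and the leucine exchanger SLC7A5 at 68.3 ± 19.7 and 73.7 ± 11.5. These neighbours did not differ beyond their spread and changed places between libraries, SLC7A5 being the higher in NT 2 and OXA 2. The loader SLC38A1 came next in every library, at 34.7 ± 3.83 RPKM in NT and 29.9 ± 3.31 in OXA.

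The lower part of the order held the heavy chain SLC3A2, at 23.1 ± 4.18 RPKM in NT, and SLC7A1, at 21.9 ± 2.15, whose ranges overlapped in NT. In OXA, SLC3A2 lay at 25.6 ± 3.16 RPKM and SLC7A1 at 16.0 ± 0.333, and SLC3A2 was the higher in all 3 OXA libraries. The taurine transporter SLC6A6 (9.40 ± 0.540 RPKM in NT), the light chain SLC7A6 (8.71 ± 0.457) and the cystine importer SLC7A11 (8.10 ± 3.04) did not differ beyond their spread in NT. SLC1A4 was the lowest in every library, at 2.04 ± 0.186 RPKM in NT and 0.989 ± 0.119 in OXA, so the largest decrease among the 10 genes belonged to the least abundant of them.

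**Figure D1:**
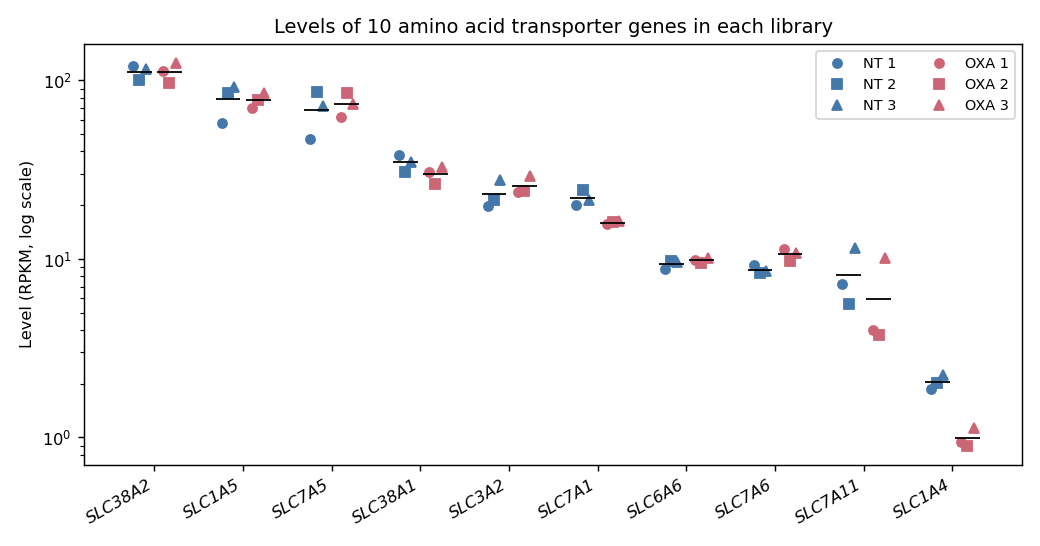
RPKM of each gene on a log axis in the 3 NT (blue) and 3 OXA (red) libraries, with marker shape giving the replicate number and black lines the group means, genes ordered by their NT mean. SLC38A2 is at the top and SLC1A4 at the bottom in every library, and the OXA points of SLC1A4 and SLC7A1 all lie below the NT points.

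SLC1A4 (chr2:64988477-65023865, plus strand, GRCh38) encodes the neutral amino acid exchanger ASCT1. Its raw counts were 455, 485 and 611 in NT 1 to 3 and 218, 206 and 315 in OXA 1 to 3. Scaled to a common library size, hereafter normalized counts, these became 465, 504 and 558 in NT and 236, 225 and 281 in OXA. The groups did not overlap, and every OXA library was close to 0.5 of its same-numbered NT library, with ratios of 0.507, 0.446 and 0.503. The log2 fold change was -1.04 (SE 0.15, 95% interval -1.38 to -0.70, edgeR adjusted p = 0.0107), the 99th lowest of the 13727 genes tested. Leaving out 1 library at a time kept the log2 fold change between -1.18 and -0.98, and the adjusted p stayed under 0.05 in 3 of 6 such fits. It rose to 0.0501 without NT 3, 0.0755 without OXA 1 and 0.0645 without OXA 2.

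SLC7A1 (chr13:29509414-29595688, minus strand) encodes CAT1, the carrier of arginine, lysine and ornithine. Its normalized counts were 5512, 6688 and 5949 in NT and 4314, 4451 and 4489 in OXA. The groups did not overlap, and the OXA libraries lay close together, with an SD of 92.0 against 594 in NT. The log2 fold change was -0.45 (SE 0.095, 95% interval -0.67 to -0.23, edgeR adjusted p = 0.0395), and the same-numbered ratios were 0.783, 0.666 and 0.755. Without 1 library the log2 fold change stayed between -0.52 and -0.41, but the adjusted p stayed under 0.05 in only 1 of the 6 fits, that without NT 1. It was 0.0743 without NT 2, 0.0924 without NT 3, 0.178 without OXA 1, 0.151 without OXA 2 and 0.113 without OXA 3. Over all genes tested, 14.4% had every OXA library below every NT library, and SLC1A4 and SLC7A1 were the 2 of the 10 transporters that did.

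SLC7A11 (chr4:138164097-138242349, minus strand) encodes xCT, the light chain that imports cystine in exchange for glutamate and so feeds glutathione synthesis. Its normalized counts were 2505, 1939 and 3984 in NT and 1380, 1293 and 3496 in OXA. Both libraries numbered 3 were the highest of their group, the groups overlapped, and the group comparison put it at -0.45 on the log2 scale with a 95% interval of -1.42 to 0.52 (edgeR adjusted p = 0.591). OXA was lower within each same-numbered pair, with ratios of 0.551, 0.667 and 0.878. With the replicate block the log2 fold change was -0.54 (SE 0.13, edgeR adjusted p = 0.033). Without OXA 3 the log2 fold change was -1.10 (adjusted p = 0.14) and without NT 3 it was -0.14 (adjusted p = 0.896), which were the lowest and highest of the 6 fits without a library.

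SLC38A1 (chr12:46183063-46270017, minus strand), which loads glutamine with sodium, had normalized counts of 13843, 11086 and 12583 in NT and 11084, 9433 and 11754 in OXA. The groups overlapped, with a log2 fold change of -0.22 (95% interval -0.50 to 0.06, edgeR adjusted p = 0.351). Within pairs OXA was lower each time, with ratios of 0.801, 0.851 and 0.934, and with the block the edgeR adjusted p was 0.0473. Its close relative SLC38A2 (chr12:46358188-46372773, minus strand), which also loads small neutral amino acids, had 28115, 23406 and 27233 normalized counts in NT and 26471, 22739 and 29284 in OXA. The NT values all lay inside the OXA range, and the interval of the log2 fold change, -0.29 to 0.28, corresponded to changes from -18.0% to 21.2% (edgeR adjusted p = 0.989).

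SLC7A6 (chr16:68264516-68301823, plus strand) encodes y+LAT2, a light chain that exchanges arginine for glutamine. It had 2520, 2282 and 2334 normalized counts in NT and 3087, 2669 and 2928 in OXA. All 3 OXA values exceeded all 3 NT values, which held for 14.5% of all genes and for no other of the 10 transporters. The log2 fold change was 0.28 (SE 0.093, 95% interval 0.07 to 0.50), which did not pass in the group comparison (edgeR adjusted p = 0.129) and did with the block (adjusted p = 0.0179). The same-numbered ratios were 1.23, 1.17 and 1.25. The antisense neighbour SLC7A6OS, the 1 gene analysed here of 10 listed as near-identical copies or antisense partners of the transporters, changed by -0.11 on the log2 scale (edgeR adjusted p = 0.725), which did not pass. Whether the counting used strand, and how reads shared between copies were assigned, is not given in the sources used here.

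SLC3A2 (chr11:62856004-62888880, plus strand), the heavy chain CD98hc, had 4568, 4944 and 6390 normalized counts in NT and 5452, 5488 and 6727 in OXA. The groups overlapped, both libraries numbered 3 were the highest, and OXA was higher in each pair by ratios of 1.19, 1.11 and 1.05. The log2 fold change was 0.15 (95% interval -0.19 to 0.50, edgeR adjusted p = 0.61), and the block did not bring it past the threshold (adjusted p = 0.0891). SLC7A5 (chr16:87830023-87869507, minus strand), the light chain LAT1 that imports leucine, had 8083, 14752 and 12300 normalized counts in NT and 10623, 14574 and 12676 in OXA. NT 1 was the lowest of the 6 libraries, and the log2 fold change of 0.11 (95% interval -0.40 to 0.61, edgeR adjusted p = 0.822) changed sign to -0.10 without it and to -0.0069 without OXA 2. Across pairs, OXA was below NT in all 3 for 4 of the 10 transporters (27.6% of all genes) and above in all 3 for 2 of the 10 (33.8% of all genes), the other 4 being mixed.

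**Figure D2:**
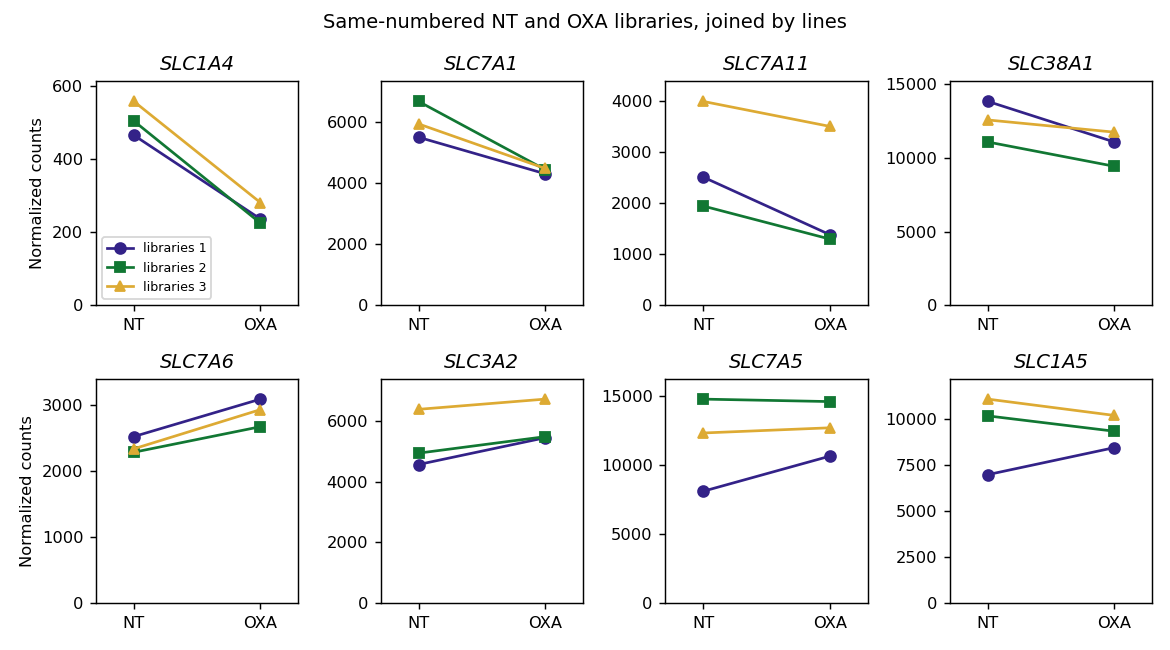
Normalized counts of 8 of the transporters in NT and OXA, with lines joining the same-numbered libraries and each axis starting at 0. SLC1A4, SLC7A1, SLC7A11 and SLC38A1 go down in all 3 pairs, SLC7A6 and SLC3A2 go up in all 3, and SLC7A11 is highest in both libraries numbered 3.

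SLC1A5 (chr19:46774883-46788594, minus strand), the glutamine exchanger ASCT2 and the closest relative of SLC1A4 among the 10, had 6963, 10149 and 11060 normalized counts in NT and 8429, 9316 and 10173 in OXA. NT 1 was again the lowest library, the OXA values all lay inside the NT range, and the log2 fold change was -0.01 (95% interval -0.41 to 0.38, edgeR adjusted p = 0.978). SLC6A6 (chr3:14402576-14489349, plus strand), which imports taurine with sodium and chloride, had 2609, 2908 and 2858 normalized counts in NT and 2919, 2825 and 3017 in OXA. Those groups overlapped, with a log2 fold change of 0.07 (95% interval -0.13 to 0.26, edgeR adjusted p = 0.714). The intervals of SLC6A6 and SLC38A2 were the narrowest among the genes near 0, and those of SLC7A11, SLC7A5 and SLC1A5 the widest of the 10.

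**Figure D3:**
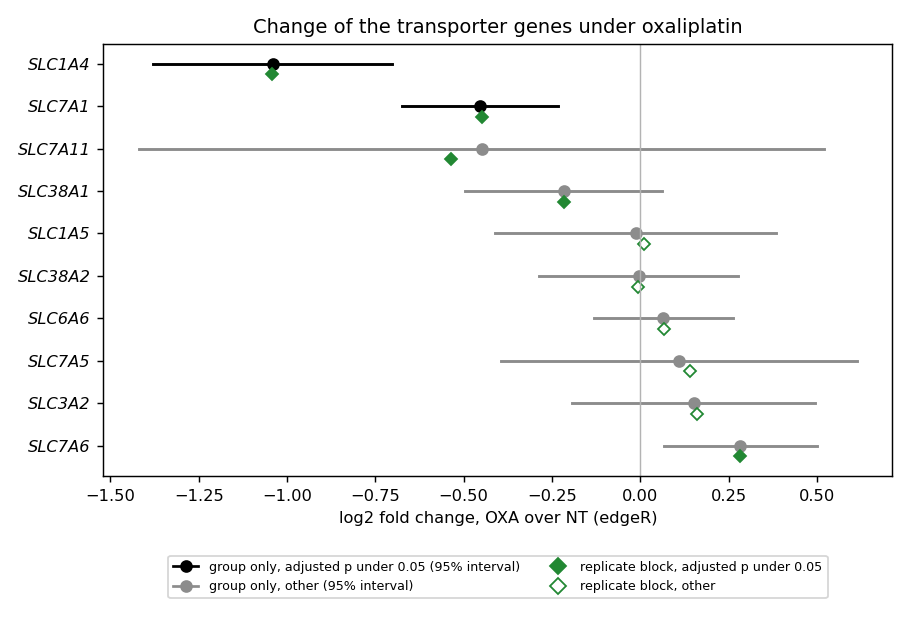
log2 fold change (OXA over NT) of each transporter by edgeR, as circles with 95% intervals for the group comparison and diamonds for the fit with the replicate block, filled black or green where the adjusted p was under 0.05. SLC1A4 and SLC7A1 pass in both fits, and SLC7A11, SLC38A1 and SLC7A6 pass only with the block.

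The heavy chain was set against its light chains within each library, as SLC3A2 RPKM over the sum for SLC7A5, SLC7A6 and SLC7A11. The ratio was 0.312, 0.215 and 0.303 in NT and 0.307, 0.242 and 0.309 in OXA. The means, 0.277 ± 0.0537 and 0.286 ± 0.0379 (SD, n = 3), differed by 0.06 on the log2 scale, less than the spread within a group (exact two-sided permutation test, p = 0.7, the smallest that 3 against 3 libraries allow being 0.1). The share of SLC7A11 in the light chain sum was 11.4%, 5.59% and 12.5% in NT and 5.15%, 3.78% and 10.6% in OXA, lower in OXA within each pair with overlapping groups. SLC7A5 made up most of the sum throughout, from 74.1% in NT 1 to 86.3% in OXA 2.

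The other amino acid transporters were read from a list of 36 genes, of which 21 passed the filter and 7 were at 0 in every library. None of the 21 passed the group test by edgeR in either direction, against 0 higher and 3 lower at an unadjusted p under 0.05, 0 and 1 by DESeq2 and 0 in both directions by limma-voom. With the block, SLC7A2 and SLC38A9 were lower and none was higher. Among all genes tested, 2.29% were lower and 2.78% higher in the group comparison, and 10.9% and 12.1% with the block. SLC7A2, a second carrier of arginine and lysine, had 2344, 1851 and 1979 normalized counts in NT and 1525, 1319 and 1484 in OXA, groups that did not overlap (log2 fold change -0.51, edgeR adjusted p = 0.0531, with the block 0.00711). SLC38A9, the arginine sensor of the lysosome, was at -0.32 on the same scale (edgeR adjusted p = 0.181, with the block 0.0433). SLC1A2, a glutamate transporter, was at 8 to 35 raw counts, with a log2 fold change of -1.05 (adjusted p = 0.149). The median log2 fold change of the 21 was -0.15.

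Other genes listed as ATF4 targets, 38 of 42 tested, went both ways, with 5 called higher and 2 lower and a median log2 fold change of -0.07. With the block 7 were higher and 9 lower. Over all genes tested, 2.78% were higher and 2.29% lower, against 12.1% and 10.9% with the block. Without 1 library, 0 to 6 of the listed genes were higher. None was left without any 1 of the OXA libraries, 1 without NT 2 and 2 without NT 3. The number lower ran from 0 without OXA 1, where the call of ASNS was lost too, to 6 without NT 1. Calls fell across all genes tested as well. Those higher went from 381 to 66, 94 and 102 without OXA 1, 2 and 3, and those lower from 315 to 19, 32 and 67. ASNS, which makes asparagine from glutamine, had 5348, 4735 and 4662 normalized counts in NT and 2431, 2189 and 2992 in OXA. The groups did not overlap, and its log2 fold change of -0.95 (SE 0.13, edgeR adjusted p = 0.00983) was the nearest in the list to that of SLC1A4. AARS1, the alanyl-tRNA synthetase, which was named after its value was seen, was at -0.45 (edgeR adjusted p = 0.0236). Those called higher were the stress cytokine GDF15 (2.00), the mTORC1 inhibitor DDIT4 (1.302), the leucine sensor SESN2 (1.16), the transcription factor ATF3 (1.02) and the seryl-tRNA synthetase SARS1 (0.46), with edgeR adjusted p from 0.0169 to 0.0274. Genes among these that are also known to be raised by p53 include GDF15, SESN2 and DDIT4.

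**Figure D4:**
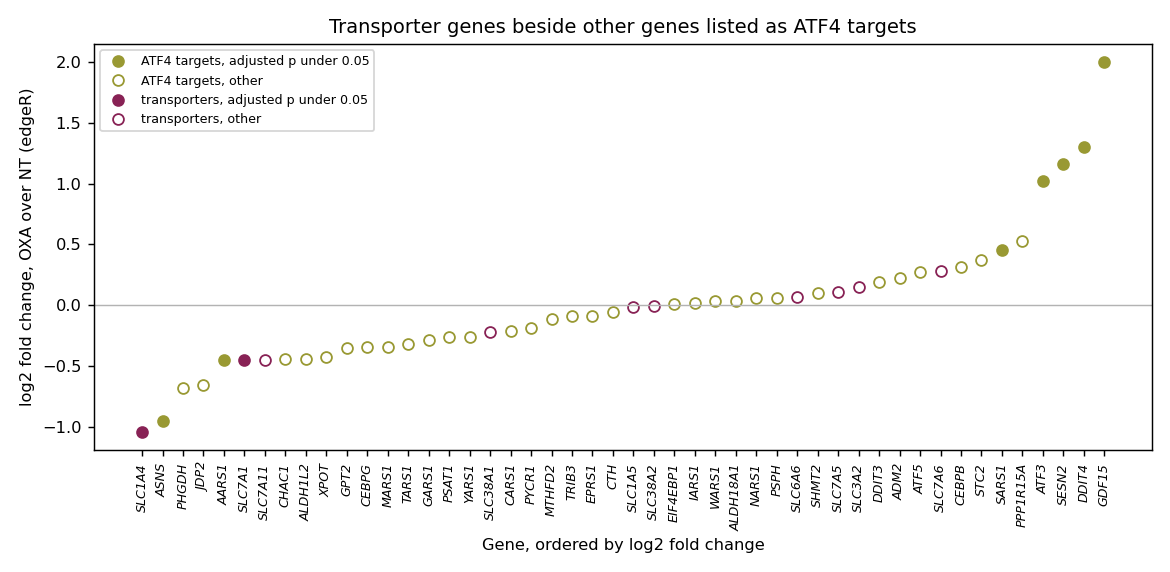
log2 fold change (OXA over NT) of the 10 transporters (purple) and 38 other genes listed as ATF4 targets (olive), ordered from lowest to highest, with filled circles where the edgeR adjusted p was under 0.05. SLC1A4 and ASNS are at the lower end, SLC7A1 lies beside AARS1, and GDF15, DDIT4, SESN2 and ATF3 are at the upper end.

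Among 22 regulators and partners of the transporters, 21 of them tested, 1 was lower and 1 was higher. ATF4 itself had 14858, 14114 and 13130 normalized counts in NT and 10828, 10115 and 11010 in OXA, without overlap (log2 fold change -0.40, SE 0.087, edgeR adjusted p = 0.0443). That call was lost with the authors' factors and in every fit without 1 library other than NT 1. Fewer of all genes tested were called lower in those fits too. MDM2, the p53 ligase given above, was the gene called higher. With the block 4 were higher and 2 lower. Of all genes tested, 2.78% were higher and 2.29% lower, and with the block 12.1% and 10.9%. ATF4 is controlled largely at translation, so its mRNA is not a measure of its protein, which these data do not hold.

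Of 40 genes of amino acid sensing by mTORC1, all tested, 4 were called higher and 1 lower, against 8 and 3 with the block. Shares over all genes tested were 2.78% higher and 2.29% lower, against 12.1% and 10.9% with the block. Without any 1 of the OXA libraries 1 of the 40 was called higher, and 2 were without NT 2 or NT 3. Fewer of all genes tested were called higher in those fits too. SESN1, a leucine-binding inhibitor and p53 target, had 764, 625 and 718 normalized counts in NT and 2117, 1714 and 1822 in OXA (log2 fold change 1.42, edgeR adjusted p = 0.00247). The others called higher were DDIT4, SESN2 and the Rag GTPase RRAGB (0.75, adjusted p = 0.0274), and FNIP2, a folliculin partner, was lower (-0.56, adjusted p = 0.0358). The call of FNIP2 was lost with the authors' factors and in every fit without 1 library other than NT 1, where fewer of all genes were also lower. The median of the 40 was 0.06.

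The genes that use the imported amino acids were read from further lists. For comparison, 2.78% of all genes tested were higher and 2.29% lower, and with the block 12.1% and 10.9%. In the cystine and glutathione list, 20 of 22 were tested, and GGCT, an enzyme of glutathione breakdown, was called lower (log2 fold change -0.46, edgeR adjusted p = 0.0484) with none higher and a median of 0.13. In that list 4 were higher at an unadjusted p under 0.05 and 2 by DESeq2, while limma-voom called 0. The call of GGCT was lost by limma-voom, with DESeq2 size factors, with the authors' factors and in every fit without 1 library other than NT 1. Each of those fits also called fewer of all genes lower. With the block 8 of that list were higher and 2 lower. In the list of glutamine, serine, arginine and taurine metabolism, 22 of 28 were tested and ASNS was the 1 gene called by edgeR, lower, with a median of 0.04. None was higher by DESeq2 or limma-voom, and 1 was at an unadjusted p under 0.05 by edgeR. With the block 2 were higher and 7 lower.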

How the data were processed

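In all, 6 libraries of TruSeq stranded mRNA from HCT116 cells, 3 NT and 3 OXA, were analysed from 1 table. The authors deposited raw counts per gene, used for every test, and beside them a normalized signal equal to the raw count times a factor that differs by gene and library, used in alternatives. The submitters' processing notes name Trimmomatic 0.32, STAR 2.7.5b, RSEM 1.3.3, DESeq2 2.13 and GRCh38. RSEM estimates counts that need not be whole, while the deposited raw counts are whole. The role of each tool, the annotation and the strand setting are not given in the sources used here. Total counts of 32979521 to 40967880 set the precision of low genes, and counting error is the least error a value has.

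Counts were filtered (filterByExpr, minimum 10, total 15), scaled by TMM and tested with edgeR 4.0.16 (R 4.3.3) by the quasi-likelihood test with a group term only, p-values being adjusted by Benjamini-Hochberg over 13727 genes and a threshold of 0.05. Intervals are 95%. The steps were run on simulated counts drawn independently for each library. Those counts held no deviations shared by same-numbered libraries, so they do not test the replicate block in that setting. Normalized counts are scaled to the mean effective library size, and RPKM uses summed exons of GENCODE 44, which also gives the coordinates. The heavy to light chain ratio was tested by an exact permutation test. Alternatives were other scalings and filters, DESeq2 1.42.0, limma-voom (limma 3.58.1), the replicate block and leaving out each library.

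NT and OXA libraries of the same number shared deviations from their group means, with r = 0.547, 0.542 and 0.307 across genes. Each was over the limit of 0.1, so blocked values are given where they change a call. Other pairs had r from -0.467 to 0.0904. Deviations within a group cancel for each gene, so the other pairs are not an independent contrast. The labels do not say what a number stands for.

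Named were the 10 transporters, and from each list the genes with adjusted p under 0.05, up to the 6 largest changes, or else the 2 smallest p, plus listed copies, CDKN1A and MDM2. SLC38A9 and AARS1 were added after their values were seen. The transporters and lists were chosen with earlier results of these data known, so no test was made over a list. Authors' own comparisons were not used.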

Additional observations from a re-analysis of the deposited data

How the results depend on the processing

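Of 140 log2 fold changes of the transporters under other settings, 119 kept their direction and side of the threshold, 9 lost the call, 3 gained one and 9 changed sign. SLC1A4 and SLC7A1 stayed below 0 in all. SLC1A4 lost its call only without NT 3, OXA 1 or OXA 2, and SLC7A1 in 5 of 6 fits without a library and, at an adjusted p of 0.0501, with the authors' factors. The replicate block was used because same-numbered samples shared deviations in these data, and the labels do not state a pairing. It gave 1664 genes higher and 1493 lower and 1 and 4 of the transporters. Blocking gained the calls of SLC7A11, SLC38A1 and SLC7A6 and changed no call of the other 7. DESeq2 gave 609 higher and 578 lower, the authors' factors 241 and 200 with 1 transporter lower, upper quartile scaling 493 lower and a minimum CPM of 1 in 3 libraries 479 lower. Without 1 library, 66 to 623 genes were higher and 19 to 571 lower, the highest both without NT 1, the library that stood apart, with 0 to 2 transporters lower. SLC1A5 turned to 0.0105 by limma-voom and 0.0096 with the block. Without 1 library it ran from -0.19 to 0.0927, SLC7A5 from -0.10 to 0.28 and SLC38A2 from -0.13 to 0.0874, and the heavy to light ratio from -0.11 to 0.17 on the log2 scale. That ratio was -0.0228 with the authors' normalized values. The causes were not tested. Of 168 list counts, 101 stayed within 1.5 times, 37 were lower and 30 higher. Depth limits SLC1A4 most, at 206 to 611 counts.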

Other observations

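The factor that turns raw counts into the deposited normalized signal differed between genes within a library. Relative to the median of its library, it ran from 0.919 to 1.31 for SLC3A2, with 1.31 in NT 1 and 1.14 in OXA 1. For the other 9 transporters it stayed between 0.959 and 1.06. On that scale SLC3A2 stood at 6100, 4684 and 5978 in NT and 6118, 5029 and 6391 in OXA, where NT 2 and OXA 2 were the lowest libraries, while on the normalized counts NT 1 was the lowest.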
